A study of Mus musculus with 74 samples.

Results

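Leukocytes leave the blood by binding the vessel wall, and the genes followed here encode both sides of that contact: the leukocyte integrin subunits Itgb2, Itgal, Itgam and Itgax, the immunoglobulin-type ligands Icam1, Icam2 and Vcam1, the endothelial selectins Sele and Selp, and the selectin ligand Selplg. These 10 genes were chosen by name for their roles, with earlier results of these data known, and every row with one of these names was taken from the 6 comparisons of Lung met with PT. A row was found for 9 of the 10 genes in at least 1 comparison and for 6 of them in every comparison. The genes tested in a comparison numbered between 17270 and 19320, and between 7 and 9 members were among them. Sele had no row in any comparison, Selp had none in Myc, and Itgam and Itgax had none in BALB and SEAGN, so these are not analysed here.

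The study sequenced RNA, total RNA by the labels and mRNA by the study's methods, of mammary primary tumors (PTs) and lung metastases (Lung mets) from female mice that carried an oncogene transgene. In the driver models, FVB males with MMTV-Her2, MMTV-Myc or C3(1)-TAg were bred to wild-type FVB/NJ females, and their groups held 6 PTs and 6 Lung mets for Her2, 6 and 6 for Myc, and 7 and 7 for C3Tag. In the PyMT-F1 models, FVB MMTV-PyMT males were bred to BALB, SEA/GNJ (SEAGN) or AKR/J females, with 6 PTs and 6 Lung mets each by the sample titles, 74 samples in all. The MMTV promoter directs Her2, Myc and PyMT, and the C3(1) promoter directs the TAg oncogene, mainly to epithelium. The transgene is thus meant for the tumor cells, and not for the leukocytes or vessels that a piece of tissue also holds. A PT sample combined fragments of all primary tumors of an animal and a Lung met sample was a whole metastasis. In the driver models, unlike the PyMT-F1 models, the methods state that animals with a single lesion had it resected and were then aged. The animals' ages are not given in the sources used here.

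The labels of the PyMT-F1 samples disagree among themselves. Of 36 such samples, 16 had a source tissue that went against their title and 23 a genotype label with another strain than their title, and the titles were followed. The comparison deposited under AKR matched, within 1%, 360 of 366 entries that the study lists for its C57BL/6J (BL6) cross and 6 of 435 that it lists for AKR. It is therefore named here as the comparison deposited under AKR, with its strain in doubt, and the counts of models in which a gene was called are also given without it.

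An integrin is a pair of an alpha and a beta chain. The beta-2 chain, CD18, encoded by Itgb2, pairs on leukocytes with the alpha chains of Itgal (LFA-1), Itgam (Mac-1) and Itgax (CD11c), and LFA-1 binds ICAM-1 and ICAM-2. VCAM-1 is instead bound by the integrin VLA-4, made of the Itga4 and Itgb1 chains. E-selectin and P-selectin let leukocytes roll along the endothelium before the integrins hold them, and PSGL-1, encoded by Selplg, is the main ligand of P-selectin. ICAM-1, VCAM-1 and E-selectin are known to be induced on endothelium by inflammatory cytokines through NF-kB, while ICAM-2 is present on resting endothelium. In the lung, ICAM-1 is also a known surface protein of alveolar type 1 epithelium.

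The upstream sequences below are shown because NF-kB is the known inducer of Icam1, and PU.1 a known regulator of myeloid genes such as Itgam. RefSeq windows on GRCm38.p6 were found for 5 of the 10 members, and the 250 bases before the start site were searched on both strands for an NF-kB type motif, spelled GGNNNTTCC, and for the PU.1 type motif GAGGAA, whose matches do not overlap those of the first in any of the 5. Capitals mark the matches, and each window is written 5′ to 3′ on the plus strand. They lie at chr9:21015690-21015939 for Icam1, chr1:164115014-164115263 for Selp and chr7:128062390-128062639 for Itgam.
Icam1: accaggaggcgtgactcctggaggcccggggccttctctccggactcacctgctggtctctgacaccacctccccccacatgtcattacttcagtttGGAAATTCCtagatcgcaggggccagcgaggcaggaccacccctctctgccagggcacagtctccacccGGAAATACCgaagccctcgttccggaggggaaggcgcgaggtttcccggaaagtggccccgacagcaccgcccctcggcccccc
Selp: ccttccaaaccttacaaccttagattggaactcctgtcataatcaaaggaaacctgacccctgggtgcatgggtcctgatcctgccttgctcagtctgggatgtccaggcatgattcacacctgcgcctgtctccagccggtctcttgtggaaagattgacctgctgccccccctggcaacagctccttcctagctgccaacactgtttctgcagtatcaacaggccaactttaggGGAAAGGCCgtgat
Itgam: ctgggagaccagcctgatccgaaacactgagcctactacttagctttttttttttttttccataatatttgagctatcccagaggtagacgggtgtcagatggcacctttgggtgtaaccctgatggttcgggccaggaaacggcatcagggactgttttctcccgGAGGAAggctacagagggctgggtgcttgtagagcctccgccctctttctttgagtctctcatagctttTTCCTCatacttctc

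The Icam1 window held the NF-kB type motif at 2 positions, from -153 to -145 and from -84 to -76 relative to the start site. The Selp window held it at 1 position, from -14 to -6, and the Sele window at 1 position, from -145 to -137. Neither integrin window held it. The Itgam window held the PU.1 type motif at 2 positions, from -84 to -79 and from -15 to -10, the Sele window at 1 position, and the Itgax window at none. Among 32851 upstream windows of the same length, 15.7% held the NF-kB type motif and 23.3% the PU.1 type motif, so that a match is a description of letters and not a site.

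Each comparison gives for a gene the authors' least-squares mean of normalized counts in PT and in Lung met and a p-value. No value of a single sample was analysed, so the means below carry no SD and the spread between animals enters only through the p-value. A Benjamini-Hochberg FDR was calculated anew across every gene with a p-value in a comparison. A gene was called at p under 0.05 with FDR under 0.1 in the driver models and at FDR under 0.05 in the PyMT-F1 models. The log2 ratio is that of the Lung met mean over the PT mean. Because models were normalized separately, means are compared within a model and differences between models were not tested. In bulk tissue, fewer cells of a type and less RNA per cell cannot be told apart.

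**Figure D1:**
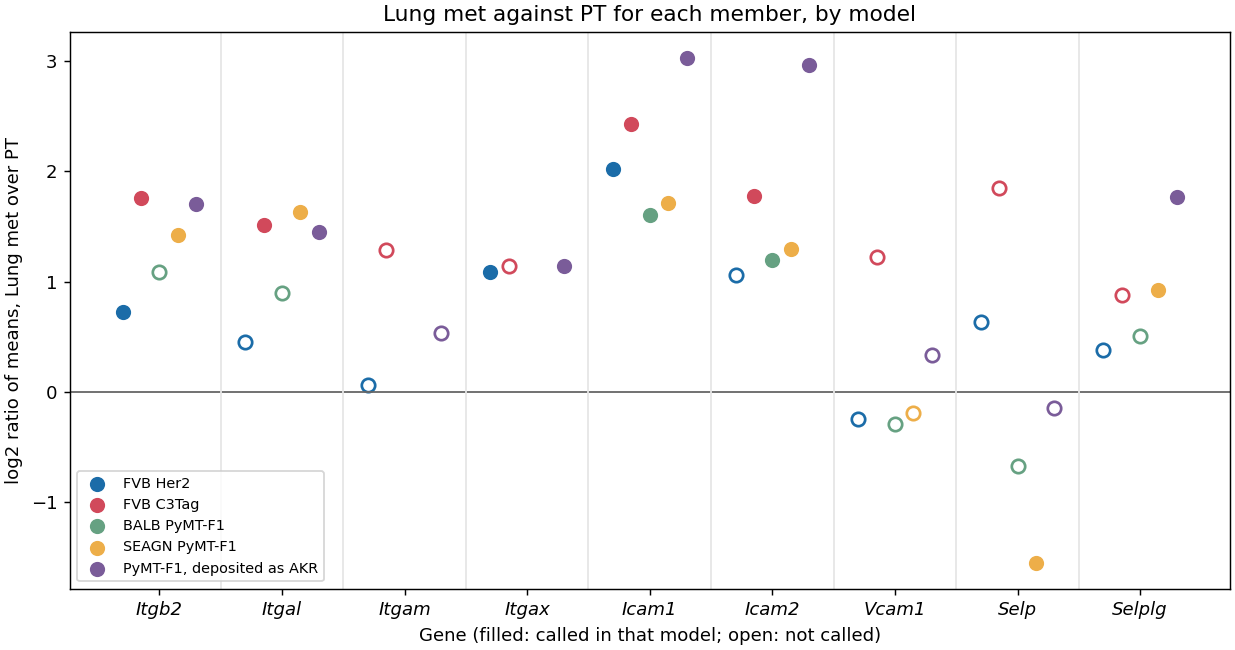
Log2 ratio of the Lung met mean over the PT mean (y axis) for each member with a row (x axis) in the 5 models with means, colored by model, where filled points were called and open points were not. Icam1 is the gene with a filled point in all 5 models, Vcam1 has open points only, and the points of Selp lie on both sides of 0.

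In each model with means a larger share of the members than of all genes was called, and with 1 exception the members called were higher in Lung met. In Her2, 3 of 9 members were called, all higher, where 1.62% of all genes were called and 1.15% were called higher. In C3Tag, 4 of 9 were called, all higher, beside 1.93% of all genes called and 1.6% called higher. BALB had 2 of 7 members called, all higher, beside 2.84% and 1.18%. SEAGN had 6 of 7 called, 5 higher and 1 lower, beside 10.9% and 5.72%. The comparison deposited under AKR had 6 of 9 called, all higher, beside 7.69% and 5.74%. In Myc, 0 of 8 members were called beside 0.268% of all genes, and 1 of 8 had an unadjusted p under 0.05. The median log2 ratio of the members was 0.63 in Her2, 1.52 in C3Tag, 0.90 in BALB, 1.29 in SEAGN and 1.45 in the comparison deposited under AKR, where the median of all genes lay between -0.00 and 0.03. The members are known partners of each other and were chosen with earlier results known, so these counts describe the genes and are not independent evidence.

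**Figure D2:**
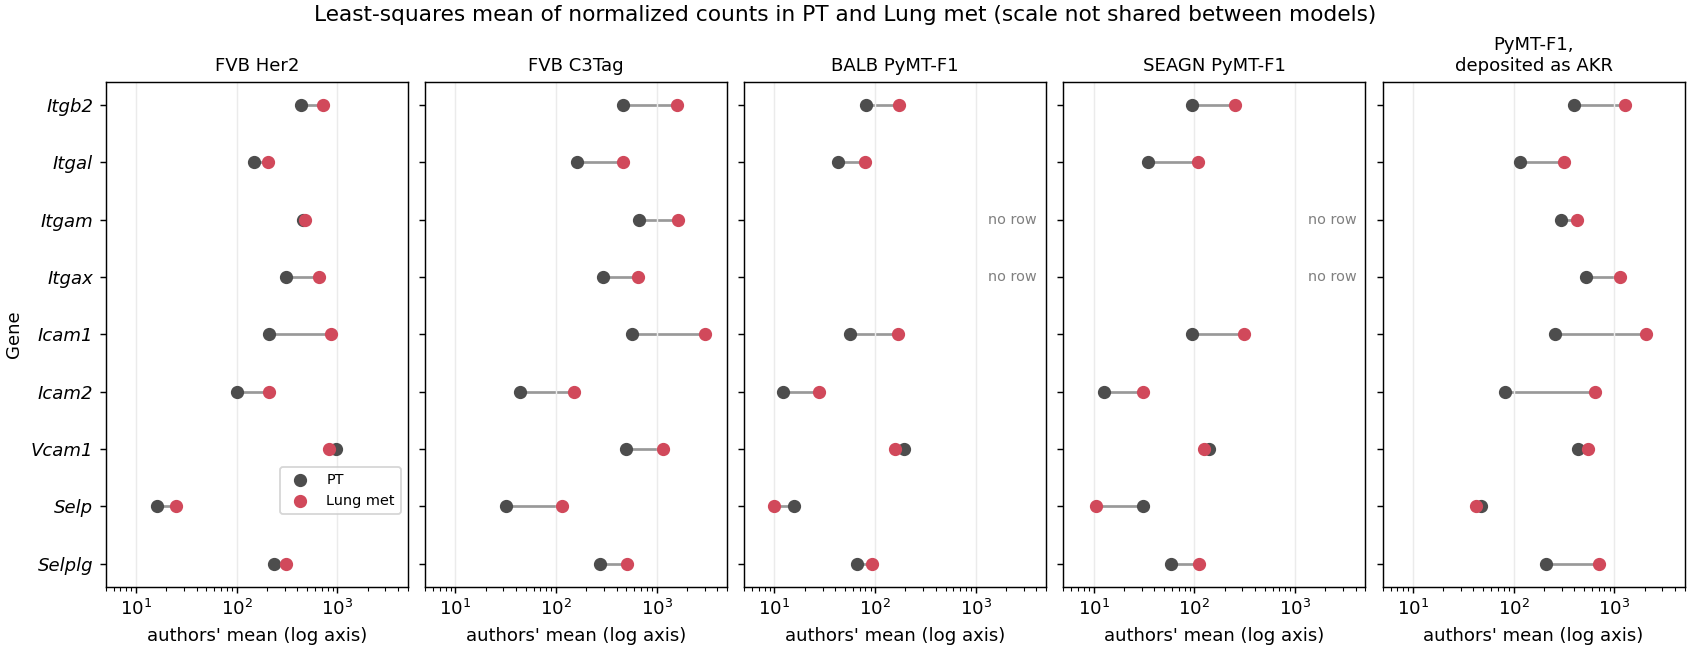
Authors' mean in PT (grey) and Lung met (red) on a log axis for the 9 members with a row, in 1 panel per model with means. The line between the points is longest for Icam1 in each of the 5 panels, and the points of Vcam1 lie close together except in C3Tag.

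Icam1, the inducible ligand of LFA-1 and Mac-1 (ENSMUSG00000037405, GRCm38 chr9:21015985-21028817, plus strand), rose in all 5 models with means and in 4 of 4 without the comparison deposited under AKR. At FDR under 0.05 in every model it was called in 4 of 5, since C3Tag lost its call there, as it also did under the Benjamini-Yekutieli adjustment. In Her2 the mean went from 210 in PT to 855 in Lung met, a log2 ratio of 2.03 (Benjamini-Hochberg FDR 0.00162). In C3Tag it went from 566 to 3045, a log2 ratio of 2.43 (FDR 0.0624). These are ratios of 4.07 and 5.38 for a gene whose PT mean exceeded the PT means of 38.7% of genes in the first model and 58.9% in the second. In BALB the mean went from 55.8 to 170, a log2 ratio of 1.60 (FDR 0.00103). In SEAGN it went from 95.2 to 313, a log2 ratio of 1.72 (FDR 3.81e-09). The comparison deposited under AKR had the highest of the 5 ratios, with a mean of 256 in PT and 2092 in Lung met, a log2 ratio of 3.03 (FDR 6.56e-07). Between 98.7% and 99.3% of all genes had a lower log2 ratio than Icam1 in each of these comparisons. In Myc, Icam1 had the lowest p-value of the 8 members, 0.0402, but its FDR was 0.999, and no direction was analysed there.

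Icam2, the constitutive ligand of LFA-1 (ENSMUSG00000001029, chr11:106377656-106388075, minus strand), rose in 4 of the 5 models with means and in 3 of 4 without the comparison deposited under AKR. In C3Tag the mean went from 44.2 in PT to 152 in Lung met (log2 ratio 1.78, FDR 0.0486). In BALB it went from 12.1 to 27.6 (1.19 on the log2 scale, FDR 0.0396), and in SEAGN from 12.6 to 30.9 (1.29 on the log2 scale, FDR 0.00608). The ratios in BALB and SEAGN rest on PT means of 12.1 and 12.6. In the comparison deposited under AKR, Icam2 moved as far as Icam1, from 82.1 to 643 (log2 ratio 2.97, FDR 1.54e-04). In Her2 the PT mean was 101 and the Lung met mean 211, a log2 ratio of 1.06 that was not called (FDR 0.179, unadjusted p 0.00459). Icam1 had the higher log2 ratio of both in each model, by between 0.06 in the comparison deposited under AKR and 0.96 in Her2, a difference that was not tested.

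Vcam1, the ligand of VLA-4 (ENSMUSG00000027962, chr3:116109949-116129688, minus strand), was called in none of the 5 models with means, and its unadjusted p was under 0.05 in C3Tag alone. Its mean was 968 in PT and 817 in Lung met in Her2, a log2 ratio of -0.25. In BALB the means were 193 and 157 (log2 ratio -0.29), in SEAGN 141 and 124 (log2 ratio -0.19), and in the comparison deposited under AKR 438 and 553 (log2 ratio 0.34). The FDR lay between 0.514 and 0.864 in these 4 models. C3Tag stood apart, with means of 499 and 1168, a log2 ratio of 1.23 and an FDR of 0.345. Per kilobase of exon, Vcam1 had the highest level of the 3 ligands in PT of Her2, at 109 beside 48.2 for Icam1 and 53.0 for Icam2. In Lung met of Her2 this order was turned, with 92.1 per kilobase for Vcam1, 196 for Icam1 and 111 for Icam2. In C3Tag and in the comparison deposited under AKR, Icam1 was already the highest of the 3 in PT. It stood at 130 per kilobase beside 56.2 for Vcam1 in C3Tag, and at 58.7 beside 49.4 in the comparison deposited under AKR. The log2 ratio of Icam1 exceeded that of Vcam1 by between 1.20 in C3Tag and 2.70 in the comparison deposited under AKR, and that difference between 2 genes was not tested.

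Itgb2, the shared beta chain of the leukocyte integrins (ENSMUSG00000000290, chr10:77530252-77565708, plus strand), rose in 4 of the 5 models with means and in 3 of 4 without the comparison deposited under AKR. The mean went from 434 to 716 in Her2 (log2 ratio 0.72, FDR 0.0346) and from 468 to 1579 in C3Tag (log2 ratio 1.76, FDR 0.0311). In SEAGN it went from 95.6 to 256 (log2 ratio 1.42, FDR 3.00e-04), and in the comparison deposited under AKR from 395 to 1286 (log2 ratio 1.70, FDR 3.95e-04). The change in Her2 was the smallest of the called ones, and Her2 was the only one of these 4 models with a ratio under 2-fold, at 1.65. In BALB the means were 80.9 and 171, a log2 ratio of 1.08 that was not called (FDR 0.171, unadjusted p 0.00957).

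Itgal, the alpha chain of LFA-1 (ENSMUSG00000030830, chr7:127296260-127335138, plus strand), was called higher in 3 of the 5 models, or 2 of 4 without the comparison deposited under AKR. It rose in C3Tag from 162.4 to 465 (log2 ratio 1.52, FDR 0.0552), in SEAGN from 34.8 to 108 (log2 ratio 1.63, FDR 1.30e-06) and in the comparison deposited under AKR from 116 to 318 (log2 ratio 1.45, FDR 0.00675). In Her2 its means were 147 and 202 (log2 ratio 0.46, FDR 0.418), and in BALB 43.0 and 80.1 (log2 ratio 0.90, FDR 0.309). Its log2 ratio stayed within 0.27 of that of Itgb2 in all 5 models, the chain with which it forms LFA-1.

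Itgam and Itgax, which encode the alpha chains of Mac-1 and of CD11c and are known for their presence on myeloid cells, had rows in Her2, C3Tag and the comparison deposited under AKR. They lie side by side on chromosome 7, Itgam at 128062640 to 128118491 (ENSMUSG00000030786) and Itgax at 128129547 to 128150657 (ENSMUSG00000030789). Itgax was called higher in 2 of the 3, or in 1 of 2 without the comparison deposited under AKR. It rose in Her2 from 309 to 658 (log2 ratio 1.09, FDR 0.0271) and in the comparison deposited under AKR from 524 to 1154 (log2 ratio 1.14, FDR 0.00980). In C3Tag its ratio was of the same size, with means of 293 and 648 and a log2 ratio of 1.14, but it was not called (FDR 0.435). Itgam was called in none of the 3 models. Its means were 456 and 478 in Her2 (log2 ratio 0.07, FDR 0.990), 665 and 1622 in C3Tag (log2 ratio 1.29, FDR 0.538), and 295 and 428 in the comparison deposited under AKR (log2 ratio 0.54, FDR 0.316). A ratio of 2.44 that misses the threshold in C3Tag does not show that Itgam was equal in both tissues.

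**Figure D3:**
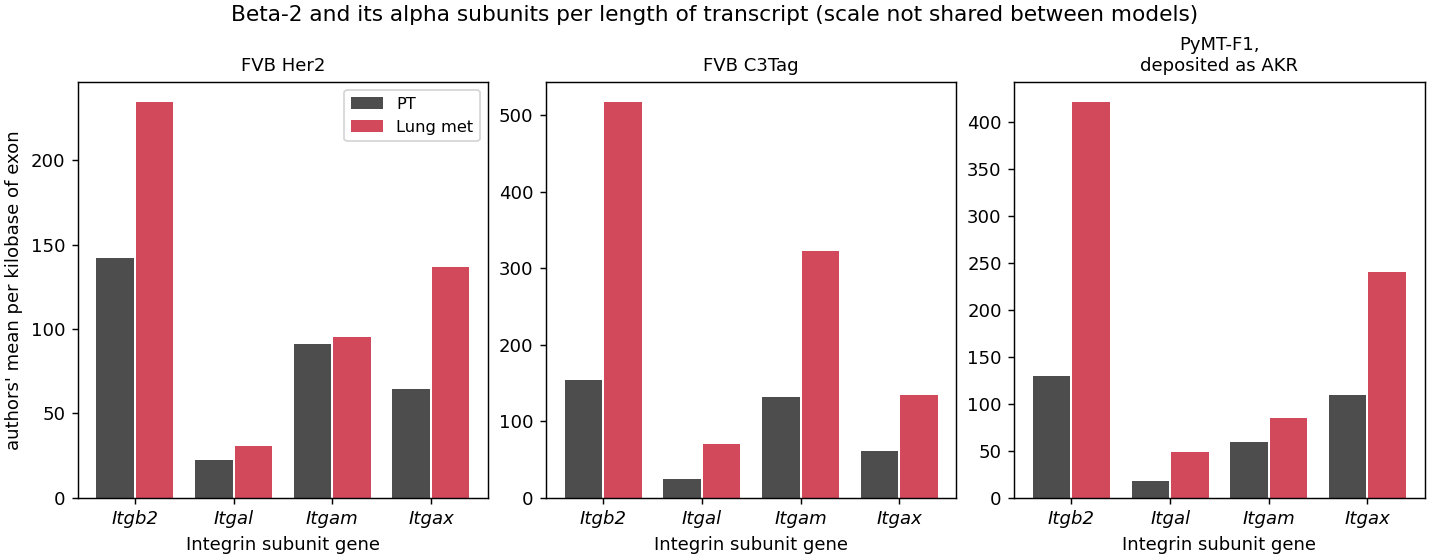
Authors' mean per kilobase of exon for the beta-2 gene Itgb2 and 3 alpha chain genes in PT (grey) and Lung met (red), in 1 panel per model with identifiers of the reference annotation; bars start at 0 and the y axis differs between panels. Itgb2 is the tallest bar in each panel, and Itgal the shortest.

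Levels of members were compared with each other only per kilobase of exon, since the means rise with gene length. The shares of genes with a lower PT mean, given above for Icam1, are not corrected for length. On that scale Itgb2 was at 142 in PT and 235 in Lung met of Her2, 153 and 518 in C3Tag, and 129 and 421 in the comparison deposited under AKR. The sum of the 3 alpha chain genes per kilobase was 1.25 times that of Itgb2 in PT and 1.12 times in Lung met of Her2. These quotients were 1.42 and 1.02 in C3Tag and 1.44 and 0.887 in the comparison deposited under AKR, so that each quotient was lower in Lung met than in PT. Itgax taken alone rose more than Itgb2 in Her2, by 1.09 against 0.72 on the log2 scale. The main alpha chain differed between models. In Her2, Itgam made up 51.2% of the alpha sum in PT and 36.2% in Lung met, while Itgax went from 36.2% to 52.1%. In C3Tag, Itgam made up 60.6% and 61.1%, and in the comparison deposited under AKR Itgax made up 58.8% and 64.3%. Itgal stayed between 9.54% and 13.4% of the sum in both tissues of the 3 models. These shares are quotients of means and have no test.

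P-selectin, encoded by Selp (ENSMUSG00000026580, chr1:164115264-164150026, plus strand), was the member called lower, and this in SEAGN alone, where the mean dropped from 30.9 in PT to 10.5 in Lung met (log2 ratio -1.55, FDR 0.00329). Only 1.27% of genes had a lower log2 ratio there. In BALB the means were 15.8 and 9.91 (log2 ratio -0.67, FDR 0.611) and in the comparison deposited under AKR 47.4 and 42.8 (log2 ratio -0.15, FDR 0.915). In the driver models the ratio had the other sign, at 0.63 in Her2 with means of 16.1 and 25.0 (FDR 0.656) and at 1.85 in C3Tag with means of 32.1 and 116 (FDR 0.210). The mean of Selp did not exceed 47.4 in PT of any model. Platelets also hold P-selectin, and of the 5 platelet markers listed, 1 to 4 had a row. Their summed mean went from 35.3 to 24.8 over 2 genes in SEAGN and from 221 to 520 over 4 genes in C3Tag, in the same direction as Selp in both. In Her2 it went the other way, from 206 to 161 over 3 genes, and so it did in the comparison deposited under AKR, from 137 to 314 over 3 genes. BALB had 1 such gene, at 16.3 and 15.9. Their part in the values of Selp was not tested.

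Selplg, which encodes PSGL-1 on leukocytes (ENSMUSG00000048163, chr5:113818536-113832644, minus strand), was higher in Lung met in all 5 models by its means and was called in 2 of them, or in 1 of 4 without the comparison deposited under AKR. The called changes were from 59.1 to 112 in SEAGN (log2 ratio 0.92, FDR 0.0209) and from 210 to 713 in the comparison deposited under AKR (log2 ratio 1.77, FDR 0.00144). The means were 235 and 307 in Her2 (log2 ratio 0.38, FDR 0.425), 274 and 505 in C3Tag (log2 ratio 0.88, FDR 0.297), and 66.1 and 93.9 in BALB (log2 ratio 0.51, FDR 0.587). In SEAGN the ligand Selplg and its receptor Selp thus went in opposite directions, both past the threshold.

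Whether receptor and ligand moved together can be read from these values pair by pair. Itgb2 and Icam1 had log2 ratios above 0 in 5 of 5 models and were both called higher in 4 of them, BALB being the exception. Itgal and Icam1 were both called higher in 3 of 5 models, and so were Itgal and Icam2, with ratios above 0 in all 5 for either pair. Itgax and Icam1 were both called higher in 2 of 3 models, and Itgam and Icam1 in 0 of 3, because Itgam was not called in any. Without the comparison deposited under AKR these counts were 3 of 4 for Itgb2 and Icam1, 2 of 4 for Itgal with either ligand, 1 of 2 for Itgax and 0 of 2 for Itgam. For the VLA-4 pair fewer models shared a sign, and Vcam1 was called in none. Itga4 and Vcam1 had the same sign in 2 of 5 models and were both called in 0, and the same counts held for Itgb1 with Vcam1. In C3Tag, 1 of these 2 models, the log2 ratios were 1.78 for Itga4 and 1.23 for Vcam1, neither of them called. Selplg and Selp had the same sign in 2 of 5 models and were both called in the same direction in 0. Without the comparison deposited under AKR, the VLA-4 pairs had the same sign in 1 of 4 models each, and Selplg and Selp in 2 of 4.

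The 8 members with a row in Myc had p-values of 0.0402 for Icam1, 0.0895 for Itgal and 0.0968 for Icam2. The other p-values were 0.169 for Selplg, 0.329 for Itgax, 0.564 for Itgb2, 0.709 for Vcam1 and 0.810 for Itgam, each with an FDR of 0.999. None of these 8 members was called, so the order of their p-values is not read as a pattern. A p that misses the threshold does not show that Myc differed from the other models.

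Of 47 other genes of the adhesion pathway, between 40 and 45 had a row. Among those, 4 of 45 were called higher in Her2, where 1.15% of all genes were, and 1 of 43 in C3Tag, beside 1.6% of all genes. In BALB 3 of 40 were called higher beside 1.18%, in SEAGN 8 of 40 beside 5.72%, and in the comparison deposited under AKR 13 of 42 beside 5.74%. The share in C3Tag is near that of all genes. In Myc, 0 of 43 were called, and the 1 gene called lower anywhere was Tnfrsf1b in SEAGN, a receptor of tumor necrosis factor, with a log2 ratio of -0.73 (FDR 0.00985). The median log2 ratio of these genes lay between 0.17 in BALB and 0.59 in the comparison deposited under AKR, below that of the members in each model.

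Spn, the leukocyte sialomucin CD43, was called higher in 3 of 5 models, or in 2 of 4 without the comparison deposited under AKR. Its mean went from 52.6 to 128 in Her2 (log2 ratio 1.28, FDR 0.0456), from 13.4 to 30.7 in SEAGN (log2 ratio 1.20, FDR 0.0252) and from 42.0 to 128 in the comparison deposited under AKR (log2 ratio 1.61, FDR 0.0120). In C3Tag its means were 464 and 466, a log2 ratio of 0.00. Itga4, the alpha chain of VLA-4, was called higher in Her2 (log2 ratio 0.59, FDR 0.0877) and in the comparison deposited under AKR (log2 ratio 1.09, FDR 0.0292). In SEAGN its log2 ratio was 0.78 (FDR 0.0540), which missed the PyMT-F1 limit of 0.05, a stricter limit than the 0.1 used for Her2. Its highest log2 ratio, 1.78, was in C3Tag, with means of 201 and 694, and was not called (FDR 0.246). Itgb1, the partner of Itga4, which most cells express, was called in 0 of 5 models, with log2 ratios between 0.04 and 0.25. Itgb7, the other beta chain that pairs with Itga4, was called in 1 of 5, the comparison deposited under AKR.

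Genes of the endothelial junction, through which leukocytes pass, were called in part of the models. Cdh5, VE-cadherin, was called higher in 3 of 5 models, or in 2 of 4 without the comparison deposited under AKR, with log2 ratios between 0.46 and 1.64 over all 5. Pecam1 and Esam, adhesion proteins of the same junctions, were called higher in 2 of 5 each, with ranges of 0.44 to 1.87 and 0.40 to 2.12. Not all genes of this list rose. Of its 7 genes, 5 had a log2 ratio above 0 in Her2, 7 in C3Tag and 5 in BALB. In SEAGN and in the comparison deposited under AKR 6 did, and the lowest log2 ratio was -0.57, in SEAGN. The sialyltransferase gene St3gal6, which takes part in building selectin ligands, was called higher in 2 of 5, with log2 ratios between 0.51 and 2.17. It is 1 of 6 such enzyme genes listed, of which 5 of 6 with a row had a log2 ratio above 0 in Her2. In C3Tag 4 of 5 did, in BALB 3 of 5, in SEAGN 5 of 5 and in the comparison deposited under AKR 5 of 6. Without the comparison deposited under AKR, Pecam1, Esam and St3gal6 were each called in 1 of 4. Rasgrp2, an activator of Rap1 upstream of integrin activation, was called higher in SEAGN (log2 ratio 1.48) and in the comparison deposited under AKR (log2 ratio 2.59). The list of inducing cytokines, their receptors and NF-kB genes held 10 genes, with medians between 0.01 and 0.38 over the 5 models, and 7 of them were called in none. Among these were Tnf, the gene of tumor necrosis factor, with log2 ratios between -0.11 and 0.41, and the NF-kB genes Nfkb1, Rela, Relb and Nfkbia. The cytokine gene Il1b was called higher in Her2 (log2 ratio 1.23, FDR 0.0393) and in the comparison deposited under AKR (log2 ratio 1.63, FDR 0.0118). Il1a was called higher in SEAGN (log2 ratio 1.32, FDR 0.0464) and in the comparison deposited under AKR (log2 ratio 1.17, FDR 0.0175). Il1b was not called in the other models, with log2 ratios of 0.02 in BALB, 1.03 in C3Tag (FDR 0.140) and 1.18 in SEAGN (FDR 0.0589). The values of Il1a that were not called lay between 0.33 in Her2 and 1.44 in BALB.

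**Figure D4:**
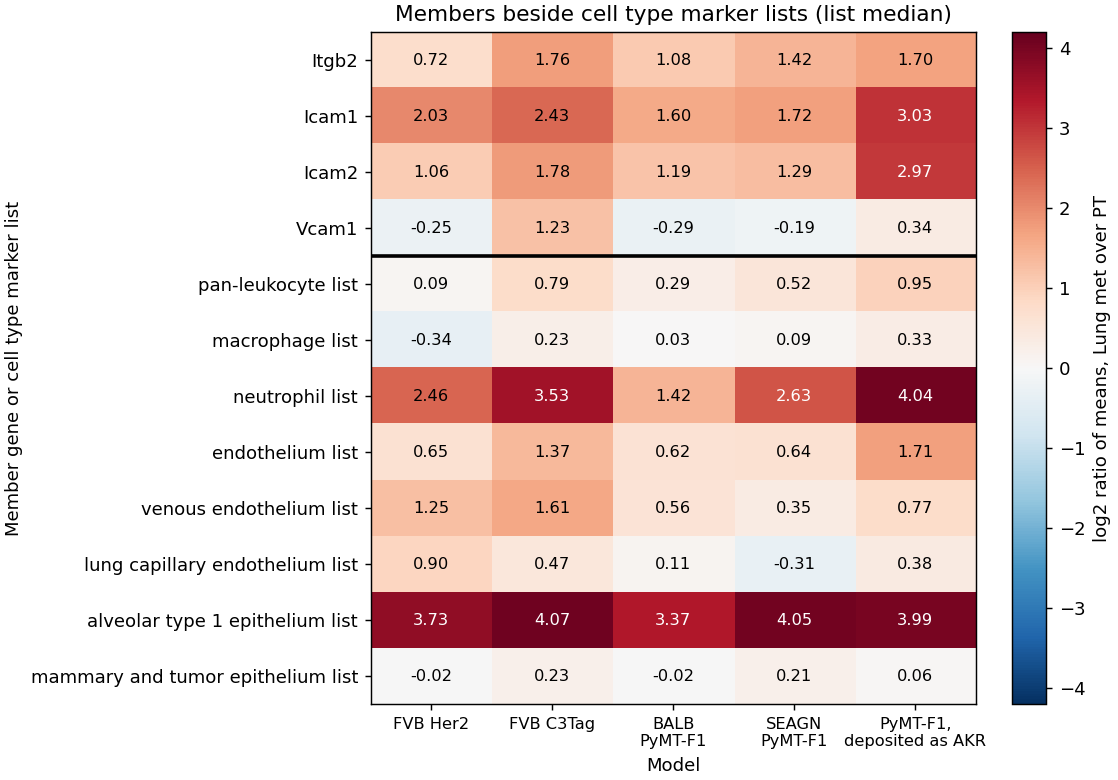
Log2 ratio of Lung met over PT for 4 members (above the black line) and the median log2 ratio of 8 lists of cell type markers (below it), with 1 column per model and the value in each cell. The neutrophil and alveolar type 1 lists are red in every column, while the macrophage and mammary epithelium lists stay near 0.

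Markers of several cell types moved along with the members, and their part in the members' values was not tested. The 6 pan-leukocyte markers, Ptprc, Coro1a and Laptm5 among them, had a median log2 ratio of 0.09 in Her2, 0.79 in C3Tag, 0.29 in BALB, 0.52 in SEAGN and 0.95 in the comparison deposited under AKR. The log2 ratio of Itgb2 was above that median in each of the 5 models, and 0, 0, 0, 1 and 3 of these 6 markers were called higher. The 8 macrophage markers had medians between -0.34 in Her2 and 0.33 in the comparison deposited under AKR, with 1 of 40 values called higher, in the comparison deposited under AKR, and 1 called lower over the 5 models. Their summed mean went from 12974 to 9915 in Her2, where Itgax and Itgb2 were called higher. Of the 4 alveolar macrophage markers with a row in Her2, 2 were called higher, Siglecf (log2 ratio 2.67) and Chil3 (log2 ratio 5.83). The other markers of that list, Fabp4 (log2 ratio -0.38) and Krt79 (log2 ratio 1.96), were not called there. Which cells held the Itgax transcripts was not tested.

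Among the neutrophil markers, unlike the 8 macrophage markers, some were called higher in every model with means. Of 7 listed, 5 or 6 had a row, and 20 of 27 values were called higher over the 5 models, or 14 of 21 without the comparison deposited under AKR. Their summed mean rose from 145 to 420 in Her2, 530 to 4880 in C3Tag, 249 to 685 in BALB, 254 to 847 in SEAGN and 692 to 8948 in the comparison deposited under AKR. S100a9, a calcium-binding protein abundant in neutrophils, was called higher in 4 of 5 models, or in 3 of 4 without that comparison, with log2 ratios between 1.96 and 4.82.

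On the vessel side, the 10 endothelial markers had medians of 0.65 in Her2, 1.37 in C3Tag, 0.62 in BALB, 0.64 in SEAGN and 1.71 in the comparison deposited under AKR. Of these markers 0, 6, 3, 5 and 10 were called higher. Icam1 and Icam2 each lay above that median in all 5 models, and Vcam1 lay below it in all 5. Cldn5, Ramp2 and Tek of the same list also lay above it in all 5, while the other markers listed did not. The log2 ratios ranged from 1.21 to 4.49 for Cldn5, 0.95 to 3.24 for Ramp2 and 0.66 to 1.79 for Tek. Of the 4 venous endothelial markers, Vwf was called higher in all 5 models, and in 4 of 4 without the comparison deposited under AKR, with log2 ratios between 1.62 and 3.23. The other venous markers were called in none, with log2 ratios from -0.07 to 1.51 for Nr2f2, from 0.17 to 1.61 for Lrg1, and -0.84 for Ackr1 in SEAGN, its only row. Alveolar type 1 epithelium, another known site of ICAM-1, had 4 of its 5 markers called higher in each model. The medians of this list lay between 3.37 and 4.07. Its defining gene Ager had log2 ratios between 4.04 and 5.48, while Aqp5 was called in none, with log2 ratios between -0.66 and 1.69. The mammary and tumor epithelium markers had medians between -0.02 and 0.23, with 0 of 24 values called.

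The genes whose log2 ratios over the 5 models lay closest to those of Itgb2 were Epas1, Fgd5, Cav1, Heyl and Bcam, out of 12317 genes present in all 5. The root mean square difference to Itgb2 was 0.11 for Epas1 and 0.22 for Bcam, and Itgal came next at 0.23. Selplg was at rank 111 and Icam2 at rank 154. For Icam1 the closest genes were Lyve1 at 0.29, Adora2b, Disp2, S100a8 and Scnn1a at 0.43, with Icam2 at rank 21 and Itgb2 at rank 87. Vcam1 was at rank 2306 from Itgb2 and 2315 from Icam1, and Selp at 11681 and 10235. These distances describe 5 comparisons and have no test.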

How the data were processed

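RNA of PTs and Lung mets was extracted with Trizol and made into stranded total RNA libraries after removal of ribosomal RNA, per the labels, while the methods name mRNA libraries. Alignment, counting per gene and normalization were done by the authors in Partek Flow, with a normalization method that is not given in the sources used here. The methods name mm9 and mm10, and the submitters' processing notes name STAR 2.7.8a and mm39, while BALB and SEAGN rows carry BALB/cJ annotation identifiers. The authors deposited for each gene a p-value of Lung met against PT, from Gene Specific Analysis in the driver models and DESeq2 in the PyMT-F1 models. They also deposited a least-squares mean of normalized counts per tissue, treated here as a signal, in every table but Myc. The deposited ratio, signed fold change and FDR columns were not used for results, and the ratio served only to compare the AKR table with the study's lists. For C3Tag, the study's sample list and the labels give different numbers of PTs, and which entered the comparison was not settled.

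Log2 ratios were computed from the means, and the Benjamini-Hochberg FDR over all genes with a p-value. Per-kilobase means used exon lengths of GENCODE M21 (GRCm38), which also gave the coordinates. Promoter windows were RefSeq's. Depth is unknown, so no counting interval was given, and whether the authors' fits paired the tissues of an animal is not given in the sources used here. The members and lists were chosen with earlier results of these data known. Named were all members, Itga4, Itgb1, Itgb7 and Pecam1, pathway genes called in at least 2 tables, and the 5 genes nearest to Itgb2 and to Icam1. A planned pathway gene is not reported here and entered no list count. Tnfrsf1b, Tnf, Nfkb1, Rela, Relb, Nfkbia, Nr2f2, Lamp3, Thy1, Cd2 and Klrb1c were named after their values were seen. So were Chil3, Ear2, Krt79, Cldn5, Ramp2 and Tek. The lists of alveolar macrophage, dendritic, T and NK cell, B cell, lung capillary, venous and alveolar type 2 markers are given in the closing section. The FDR step was tested on simulated data. Python 3.11.15, pandas 2.3.3, numpy 2.4.6, scipy 1.17.1 and matplotlib 3.10.9 ran all steps. The alternatives tried were a different FDR limit, a ratio of at least 2-fold, a mean of at least 10, Benjamini-Yekutieli adjustment, a pseudocount of 10 and centring on the median of all genes.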

Additional observations from a re-analysis of the deposited data

How the results depend on the processing

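No paired analysis was possible because the tables hold comparisons and no value of a single sample, and for the same reason leaving out each replicate in turn was not run. Under the Benjamini-Yekutieli adjustment the members called were 1 in Her2, 0 in C3Tag and 1 in BALB in place of 3, 4 and 2. In C3Tag an FDR under 0.05 left 2, as Icam1 and Itgal no longer passed. The calls of SEAGN and of the comparison deposited under AKR stayed within 1.5 times of 6 under each alternative run, with 4 of 6 left by the Benjamini-Yekutieli adjustment in each. Of 41 log2 ratios of members, none changed sign after centring, and none changed its call with a mean of at least 10. A pseudocount of 10 added to both means cannot change a sign, and it only draws a ratio toward 0. With it the log2 ratio of Icam2 in BALB went from 1.19 to 0.77, and that of Selp in SEAGN from -1.55 to -0.99. A ratio of at least 2-fold removed 2 calls, Itgb2 in Her2 and Selplg in SEAGN. Without the comparison deposited under AKR, Selplg was called in 1 model in place of 2. The p-values are the authors', so what another test or normalization would give was not tested.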

Other observations

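Other marker lists gave mixed values. Alveolar macrophage markers had between 1 and 4 of 6 genes with a row, with 7 of 15 values called higher and 2 called lower over the 5 models. Siglecf, a sialic acid receptor of these cells, was called higher in the 3 models where it had a row. Its log2 ratios were 2.67 in Her2, 3.77 in C3Tag and 3.25 in the comparison deposited under AKR. Chil3 was called higher in Her2 and SEAGN, and Ear2 in C3Tag and the comparison deposited under AKR, their only rows. Fabp4 was lower in all 4 models with a row, with log2 ratios between -2.73 and -0.38, and was called in SEAGN. Krt79 was also called lower in SEAGN, with log2 ratios between -1.25 and 1.96 in 4 models. Dendritic cell markers had 5 of 19 values called higher, and B cell markers 1 higher of 3. T and NK cell markers had 4 higher and 5 lower of 16, where the 5 lower values were all of Thy1, with log2 ratios between -2.68 and -1.40, and the 4 higher values, of Cd2, Cd3d, Cd3g and Klrb1c, were all in the comparison deposited under AKR. Venous endothelial markers had 5 of 16 values called higher, and Vwf accounted for all 5. Lung capillary endothelial markers had 4 higher and 3 lower of 25, and Lamp3, the 1 gene of the alveolar type 2 and airway list with a row, was called higher in all 5 models with log2 ratios between 4.62 and 7.84. Without the comparison deposited under AKR, alveolar macrophage markers had 5 higher and 2 lower of 12, dendritic cell markers 3 higher of 14. B cell markers then had 0 of 2, venous markers 4 higher of 13, and lung capillary markers 2 higher and 3 lower of 20. Siglecf was then called higher in 2 of 2 models and Lamp3 in 4 of 4.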
